A study of Mus musculus with 6 samples.

Results

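The p53 target genes were examined in the mouse line BaF3 after transfection with forms of the Notch1 intracellular domain. The 34 members were Trp53 itself and 33 genes it is known to switch on or that restrain it, taken by symbol from the deposited tables, which hold 18946 genes in all. Each of the 34 was found in at least 1 table, 33 were in both, and 29 passed the filter on low values and were tested. All 29 stood at FPKM 1 or more in both control libraries, so none passed only through a transfected group. FPKM are fragment counts divided by transcript length and by the size of the library, so levels of different genes can be compared on this scale.

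p53, the product of Trp53, is a transcription factor that is normally kept scarce because its own target Mdm2 marks it for destruction. Stress such as DNA damage, ribosome failure or a strong growth signal stabilizes the protein, and it then switches on genes for cell cycle arrest, death, DNA repair and metabolic protection. Its activity is set mostly at the protein level, which RNA does not show.

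All groups were BaF3 cells, labelled as a pro-B chronic lymphocytic leukemia line, grown in 10% serum with 2 ng/mL of mouse interleukin-3, and 24 h separated nucleofection from sorting. The con group carried pmax-Clover, a plasmid for a green fluorescent protein, the ICN group pmax-Clover-ICN, which adds the Notch1 intracellular domain, and the CTdel group pmax-Clover-CTdel, which the series' design text calls a mutated ICN. What CTdel removes is not given in the sources used here, and no group carried empty plasmid of the same size, so effects of the insert and of plasmid size cannot be told apart. There were 2 libraries per group, numbered replicates 1 and 2, and a separate table held each number, so every change below was taken within a table. Whether replicates came from separate cultures is not stated, and the p-values therefore reflect library-to-library spread, which may be technical. Both forms were compared with the same con libraries, so their changes share that control.

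In replicates 1 and 2, Notch1 FPKM was 0.89 and 1.72 (con), 190.0 and 888 (ICN) and 84.9 and 25.4 (CTdel), higher in ICN replicate 2 and in CTdel replicate 1 within their groups. FPKM summed to 489693 to 507894 per library, and the relative depth read from small RNA genes was 0.962 to 1.08. Genes above 0 numbered 14951 and 14981 (con), 16413 and 16946 (ICN) and 15822 and 15599 (CTdel). Of 14 pro-B markers 3 were tested, with Pax5, Ebf1, Igll1, Rag1 and Rag2 at or below 0.25 wherever they were listed, while Csf2rb, the shared interleukin-3 receptor chain, stood at 166 to 297. The pro-B markers summed to 38.3 to 81.5 (con), 91.0 to 150.1 (ICN) and 197 to 264 (CTdel), most of it Ptprc, the pan-leukocyte CD45. T cell markers summed to at most 2.46.

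Promoter sequences show which members carry p53-like letters close to their start. RefSeq windows for GRCm38.p6, from 250 bases before to 50 after a start, matched 28 of the 34 members with 39 windows, and Trp53inp1, Zmat3, Perp, Ddb2, Xpc and Rrm2b had none. The p53 decamer motif, which is its own reverse complement, was present without mismatch in 11 of the 39 windows (28.2%), against 8.36% of 32851 windows of the same length over all genes. A pair of decamers in a row with at most 2 mismatches, a match that can contain the single decamer, was present in 4 windows (10.3%), against 0.326% of all. The members were chosen as known p53 targets, so these shares describe the list. In the paired search the fixed C and G of each decamer had to match, and no spacer between decamers was allowed. The 4 windows are shown as the stretch around the match, with the paired decamers in capitals:

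Cdkn1a, chr17:29090888-29090978, plus strand, 1 mismatch: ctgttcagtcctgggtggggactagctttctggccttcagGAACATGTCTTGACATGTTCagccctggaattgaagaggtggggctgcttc
Ccng1, chr11:40755422-40755521, minus strand, 1 mismatch: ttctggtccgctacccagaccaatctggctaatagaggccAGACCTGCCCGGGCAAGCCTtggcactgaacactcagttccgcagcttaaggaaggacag
Rps27l, chr9:66946256-66946355, plus strand, 1 mismatch: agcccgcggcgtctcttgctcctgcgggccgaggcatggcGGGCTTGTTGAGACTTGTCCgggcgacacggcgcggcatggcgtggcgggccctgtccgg
Cd80, chr16:38458782-38458881, plus strand, 2 mismatches: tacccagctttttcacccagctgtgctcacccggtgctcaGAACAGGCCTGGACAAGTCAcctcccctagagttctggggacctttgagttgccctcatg

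The match in Cdkn1a lies by the more upstream of its 2 RefSeq starts, and the other window of the gene held no decamer. With 3 mismatches allowed, Aen, Sesn1, Tigar and Trp53 also matched, the last with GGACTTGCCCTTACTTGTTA at chr11:69580284-69580303. Mdm2 held a single decamer, GAACTTGCCT, in its window. Sites outside the windows were not searched, so a member without a match here may hold one elsewhere. The motif of RBPJ, the DNA-binding partner of the Notch1 intracellular domain (GTGGGAA on either strand), was present in 3 of the 39 windows, those of Cd80, Plk2 and Sesn1, or 7.69% against 6.38% of all.

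In control cells the highest levels were those of Rps27l, Trp53, Cdkn1a and Ccng1, with means of 195 ± 21.0, 141 ± 27.4, 159.8 ± 40.5 and 98.2 ± 26.5 (SD, n = 2). The order among Trp53, Cdkn1a and Rps27l was within their spread. Mdm4, Mdm2, Ei24, Aen and Sesn2 followed at means of 42.5 to 45.4. The lowest tested member was Cd80 at 3.60 ± 2.13 (SD, n = 2). Con replicate 2 stood below con replicate 1 in 20 of the 29 tested members, against 52.6% of all tested genes. The median difference was −0.40 on the log2(FPKM + 1) scale, beside −0.03 over all tested genes. In those 20 members, changes in the table of replicate 2 started from a lower control. Con replicate 2 was the lowest of the 6 libraries in 15 members, a count whose share over all genes was not computed.

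With ICN the p53 targets were mostly higher than in con, far more in replicate 2 than in replicate 1. Of the 29 tested members 26 had a higher mean, against 50.1% of all 11050 tested genes, and 18 were higher in both replicates, against 29.8%. In 17 both ICN libraries lay above both con libraries, against 22.7% of tested genes. The median change was 0.68 on the log2(FPKM + 1) scale, 0.28 in replicate 1 and 1.41 in replicate 2, beside 0.00, 0.02 and 0.02 over all tested genes. ICN exceeded con over 2-fold in 4 members in replicate 1 and in 17 in replicate 2, against 6.56% and 15.6% of tested genes. None passed the test: limma, fitted across all genes with Benjamini-Hochberg adjustment, called 0 of 29 members at an adjusted p under 0.05, where it called 0.0362% of tested genes. At an unadjusted p under 0.05 there were 11 higher members and 0 lower ones, against 10.0% and 5.03% of tested genes.

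**Figure D1:**
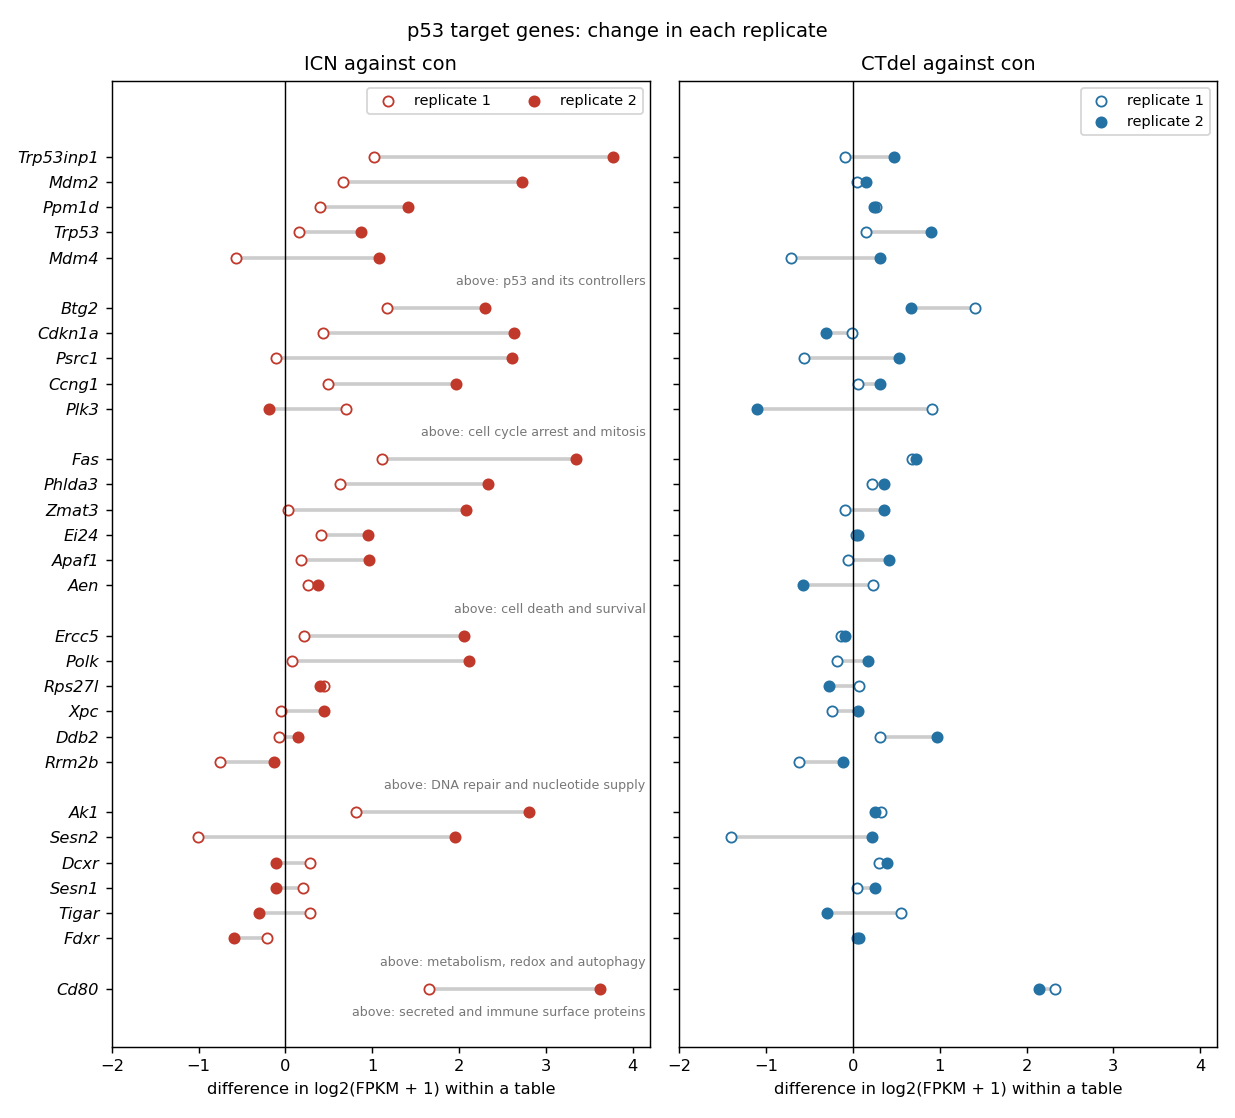
Difference in log2(FPKM + 1) from con within each table for the 29 tested p53 target genes, with open points for replicate 1, filled points for replicate 2, and genes grouped by role. In ICN most filled points lie right of the open ones, up to 3.77 for Trp53inp1, while in CTdel most points lie near 0 and Cd80 stands apart above 2.

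Trp53 and its 4 controllers had a median change of 0.90 in ICN and 0.19 in CTdel. Trp53 (Gene ID 22059, chr11:69580348-69591873 in GRCm38) stood at FPKM 160.1 and 121 (con), 179 and 224 (ICN) and 178 and 227 (CTdel). All 4 libraries with a Notch1 plasmid lay above both con libraries, by a log2 change of 0.52 in ICN (adjusted p = 0.393 in limma's test) and 0.52 in CTdel (adjusted p = 0.548). Mdm2, the ubiquitin ligase that degrades p53 and is itself a p53 target, stood at 55.5 and 32.9 (con), 88.2 and 224 (ICN) and 57.5 and 36.7 (CTdel). Its ICN libraries lay above all 4 others, at 1.59 and 6.8 times con. The log2 change was 1.69 ± 0.52 (SE, adjusted p = 0.259 in limma's test). Trp53inp1, a nuclear protein that promotes p53-dependent death, had the widest gap of this group, with 15.8 and 7.33 (con), 33.0 and 113 (ICN) and 14.8 and 10.5 (CTdel). Its ICN level was 2.09 and 15.4 times con in the replicates (log2 change 2.40 ± 0.63 SE, adjusted p = 0.222 in limma's test).

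Ppm1d, the phosphatase that switches the p53 response off again, stood at 8.74 and 10.9 (con) and 11.9 and 30.5 (ICN), with a log2 change of 0.90 (adjusted p = 0.289 in limma's test). Mdm4, the Mdm2 relative that blocks p53's activation domain, differed in direction, at 63.1 (con) and 42.1 (ICN) in replicate 1 but 26.3 (con) and 56.5 (ICN) in replicate 2. In 4 of these 5 genes, Mdm4 being the exception, both ICN libraries lay above both con libraries, against 22.7% of tested genes.

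The 5 tested genes of cell cycle arrest and mitosis had a median change of 1.25 in ICN and −0.02 in CTdel. Cdkn1a, the inhibitor p21 that carries out most of p53's arrest, stood at 188 and 131 (con), 254 and 820.4 (ICN) and 187 and 106 (CTdel). The ICN libraries lay above the other 4, at 1.35 and 6.26 times con. The log2 change was 1.53 ± 0.60 (SE, adjusted p = 0.323 in limma's test). Ccng1, cyclin G1, which feeds back on Mdm2, stood at 117 and 79.5 (con), 165 and 312 (ICN) and 122 and 99.2 (CTdel), again with both ICN libraries highest (log2 change 1.23 ± 0.38 SE, adjusted p = 0.259). Btg2, an antiproliferative regulator of mRNA decay, was above con in all 4 libraries with a Notch1 plasmid within their tables, at 6.12 and 2.71 (con), 15.0 and 17.2 (ICN) and 17.9 and 4.89 (CTdel). CTdel replicate 2 still lay below con replicate 1, so those groups overlapped. Btg2 had a log2 change of 1.73 ± 0.44 in ICN (SE, adjusted p = 0.207 in limma's test).

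Psrc1, a microtubule-binding protein of mitosis, was even in replicate 1, at 12.8 (con) and 11.8 (ICN), and far apart in replicate 2, at 7.14 and 48.7. Plk3, a stress kinase, stood between 2.51 and 7.75 in the 6 libraries with no order by group. Plk2, its relative, was at or below 0.02 throughout and was not tested.

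Death genes were above con in ICN in 6 of 6 tested members, in both replicates each, against 29.8% of tested genes. Their median change was 0.87 in ICN and 0.16 in CTdel. Fas, the death receptor, stood at 7.54 and 3.81 (con), 17.5 and 48.0 (ICN) and 12.7 and 6.93 (CTdel). Its ICN level was 2.32 and 12.6 times con (log2 change 2.23 ± 0.56 SE, adjusted p = 0.207 in limma's test). In CTdel Fas was 1.68 and 1.82 times con, but CTdel replicate 2 lay below con replicate 1. Phlda3, which blocks the survival kinase Akt, stood at 19.2 and 19.8 (con), 30.3 and 103 (ICN) and 22.6 and 25.6 (CTdel). Unlike most members its con libraries lay close together, and its ICN change was 1.48 ± 0.44 (SE, adjusted p = 0.249).

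Ei24, a protein of the endoplasmic reticulum, stood at 43.0 and 47.8 (con), 57.6 and 93.5 (ICN) and 44.0 and 49.8 (CTdel). Zmat3, an RNA-binding p53 target, rested on replicate 2, with 13.5 and 6.91 (con) and 13.8 and 32.4 (ICN). Apaf1, the scaffold of the apoptosome, had log2 changes of 0.18 and 0.96 in the replicates, and the nuclease Aen 0.26 and 0.38. Eda2r, a death receptor of the TNF family, was too low to test but had both ICN libraries highest, with 0.22 and 0.07 (con), 0.64 and 2.19 (ICN) and 0.16 and 0.13 (CTdel). Perp was in 1 table only, at 0 to 0.03.

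**Figure D2:**
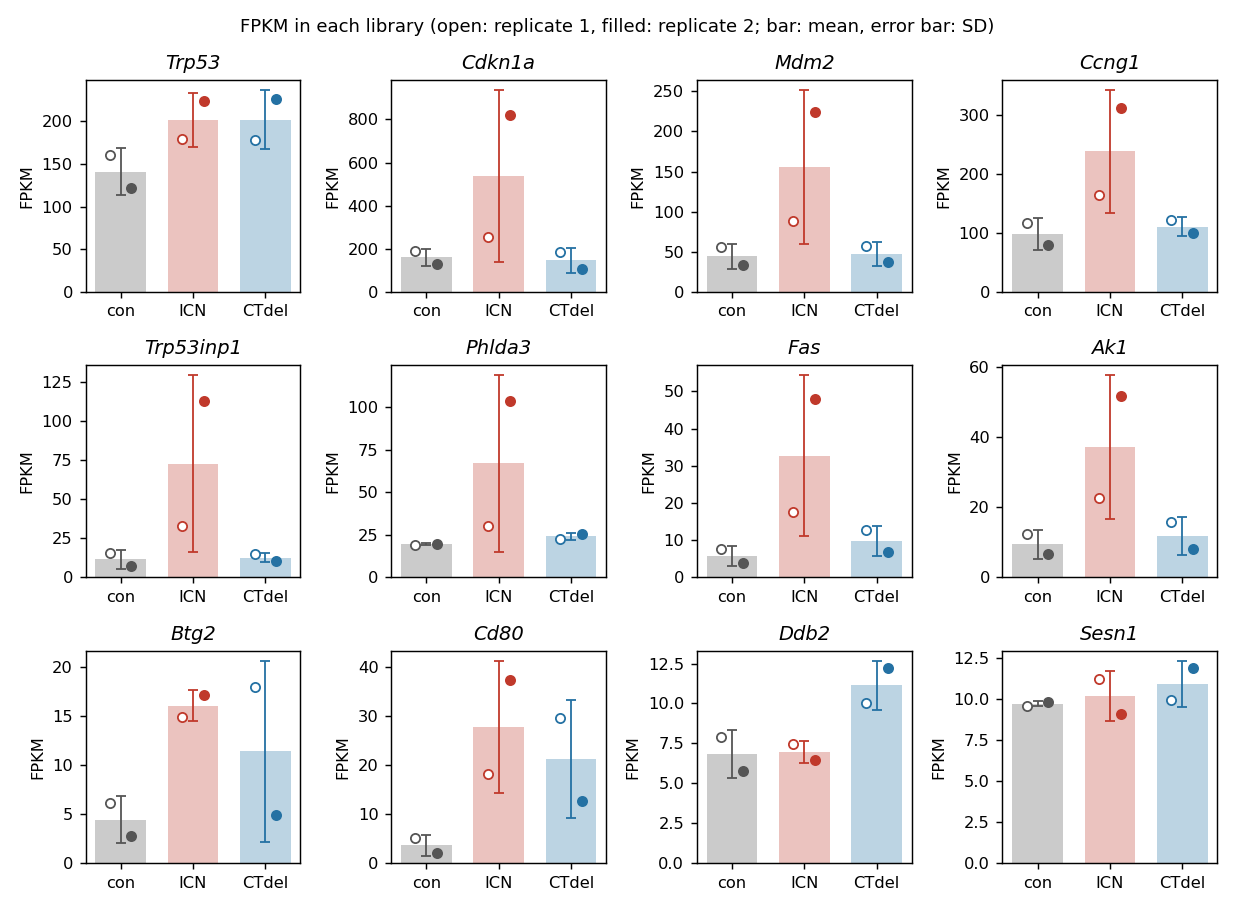
FPKM of 12 members in each library, with open points for replicate 1, filled points for replicate 2, bars for the mean and error bars for the SD (n = 2). For Cdkn1a, Mdm2, Trp53inp1, Phlda3, Fas and Ak1 the point of ICN replicate 2 is the highest by far, and the CTdel points lie by those of con. Trp53, Btg2, Cd80, Ddb2 and Sesn1 show other patterns.

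The 6 repair genes had a median change of 0.31 in ICN, with 3 of them higher in both replicates, against 29.8% of tested genes. Polk, a translesion polymerase, and Ercc5, an excision nuclease, were higher mainly in ICN replicate 2, where they were 5.23 and 4.64 times con after 1.06 and 1.18 times in replicate 1. Rps27l, a ribosomal protein relative that p53 induces, was alike in the replicates, with 180.0 and 209.7 (con), 245 and 277 (ICN) and 189 and 174 in CTdel (log2 change 0.42 ± 0.20 SE, adjusted p = 0.383 in limma's test). Rps27l has a close paralog, Rps27, at 989 to 1410 here, and how reads of the pair were divided is not given, so its level is uncertain. Xpc, which finds damaged DNA, stood between 6.84 and 9.69 in all libraries.

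Ddb2, which recognizes ultraviolet damage, was the one tested member with a larger mean change in CTdel than in ICN at an unadjusted p under 0.05. It stood at 7.92 and 5.77 (con), 7.44 and 6.48 (ICN) and 10.1 and 12.2 (CTdel), so CTdel lay above the other 4 libraries. Its log2 change in CTdel was 0.64 ± 0.24 (SE, adjusted p = 0.377 in limma's test). Its exons share 652 bases, or 23.8%, with Acp2 on the opposite strand, and Acp2 stood at 6.95 and 6.00 (con), 8.13 and 4.67 (ICN) and 14.5 and 9.08 (CTdel). Whether the counting used strand is not given, so reads of the pair cannot be told apart. Smaller opposite-strand overlaps, of 3.32% to 8.04% of exon bases, touch Cdkn1a, Ei24, Rrm2b, Plk3 and Tigar. Rrm2b, the p53-inducible subunit of ribonucleotide reductase, was below con in both replicates of both forms, with 4.95 and 2.46 (con), 2.52 and 2.16 (ICN) and 2.87 and 2.19 (CTdel), but the groups overlapped.

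The 6 tested metabolic members had the lowest median in ICN among the roles with over 1 tested gene, 0.07. Of the 6, 1 was higher in both replicates, against 29.8% of tested genes. Ak1, an adenylate kinase, was the exception, with 12.4 and 6.56 (con), 22.7 and 51.7 (ICN) and 15.8 and 8.01 (CTdel). Both ICN libraries were highest, at 1.82 and 7.88 times con (log2 change 1.81 ± 0.52 SE, adjusted p = 0.244 in limma's test). Sesn2, a brake on mTORC1, differed in direction too, at 57.7 (con) and 28.3 (ICN) in replicate 1 but 27.3 and 109 in replicate 2. In CTdel it stood at 21.2 and 31.8, with a log2 change of −0.59 (adjusted p = 0.818).

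Fdxr, the mitochondrial ferredoxin reductase, was the one member with both ICN libraries below both con libraries, against 19.6% of all tested genes. It stood at 11.0 and 14.8 (con) and 9.40 and 9.43 (ICN). Sesn1 stood between 9.09 and 11.9, Tigar, which limits glycolysis, between 3.20 and 5.15, and Dcxr, a sugar reductase, between 12.2 and 20.4. Dcxr and Sesn1 had both CTdel libraries above con, with Dcxr at 20.4 and 17.7 against 16.3 and 13.2 (log2 change 0.35, adjusted p = 0.650 in limma's test). Dram1, an inducer of autophagy, was at or below 0.61 and was not tested. Gdf15, a secreted stress signal, was not tested either and exceeded 0.28 only in ICN replicate 2, at 1.13.

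Cd80, a costimulatory surface protein, had the largest ICN change of the list and was above con with both forms. It stood at 5.11 and 2.10 (con), 18.2 and 37.3 (ICN) and 29.7 and 12.7 (CTdel). All 4 libraries with a Notch1 plasmid lay above both con libraries. The log2 change was 2.64 ± 0.53 in ICN (SE, adjusted p = 0.169 in limma's test) and 2.23 ± 0.53 in CTdel (adjusted p = 0.152), and for both forms together 2.44 (adjusted p = 0.0878).

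With CTdel the median of the list stayed near con. Of 29 tested members 18 had a higher mean, against 42.1% of tested genes, and 14 were higher in both replicates, against 26.2%. In 6 both CTdel libraries lay above both con libraries (Trp53, Phlda3, Ddb2, Sesn1, Dcxr and Cd80), against 18.3% of tested genes. In 0 members they lay below both, against 23.5%. The median change was 0.13, with 0.05 and 0.25 in the replicates, beside −0.06 over all tested genes. Its sign rested on single libraries: it was −0.13 without con replicate 2, −0.10 without CTdel replicate 1, 0.33 without CTdel replicate 2 and 0.50 without con replicate 1. Limma called 0 of 29 members where it called 1.41% of tested genes, and at an unadjusted p under 0.05 Cd80 and Ddb2 were higher, against 7.79% of tested genes, and 0 members were lower, against 3.99%. Without ICN replicate 1 or without ICN replicate 2, limma called Btg2 and Cd80 higher in this comparison, against 5.17% and 5.19% of tested genes.

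**Figure D3:**
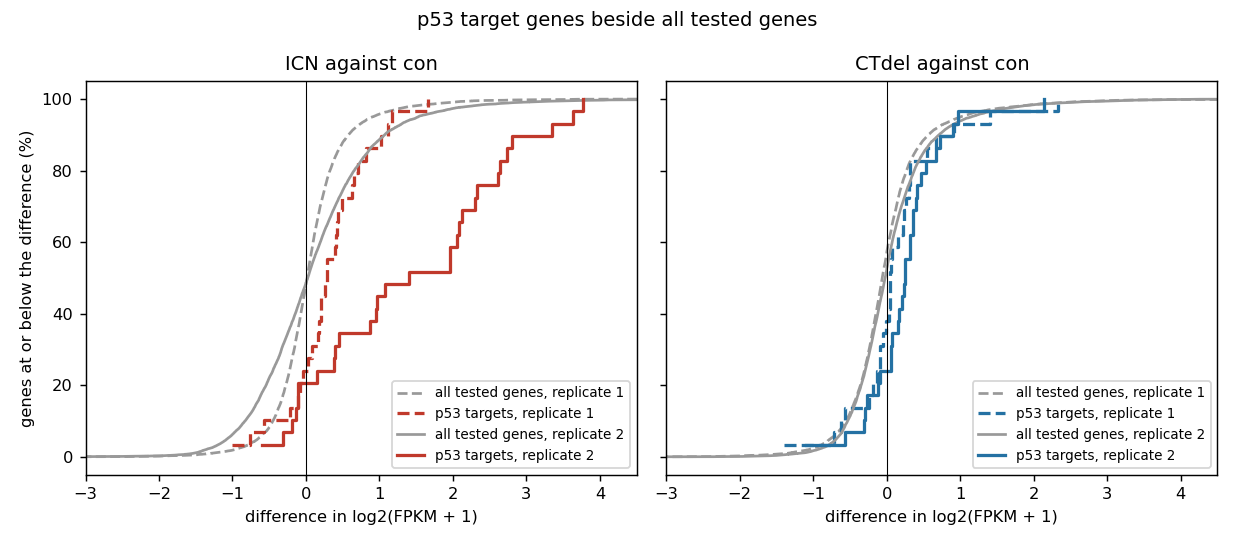
Cumulative share of genes, in percent, by their difference in log2(FPKM + 1) from con, for the 29 tested p53 target genes and all 11050 tested genes, with dashed lines for replicate 1 and solid lines for replicate 2. The solid ICN line of the p53 targets lies far to the right of the grey lines, with a median of 1.41, and the CTdel lines lie close to them.

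Set against each other, CTdel was below ICN in 22 of the 29 tested members, in 19 of them in both replicates. Over all 11050 tested genes CTdel was below ICN in 6037, in 4234 of them in both replicates. In 16 both CTdel libraries lay below both ICN libraries, against 25.0% of tested genes, and Ddb2 and Fdxr lay above. The median difference was −0.64, with −0.20 and −1.17 in the replicates, beside −0.04 over all genes. Leaving out ICN replicate 2 made it −0.15, leaving out ICN replicate 1 made it −1.16, and leaving out CTdel replicate 1 made it −0.99. Limma called 0 members, against 0.0181% of tested genes, and at an unadjusted p under 0.05 there were 10 lower and 1 higher, against 3.64% and 3.49%. The smallest p was that of Trp53inp1, with a log2 difference of −2.20 ± 0.63 (SE, adjusted p = 0.633). Mdm2 had −1.59 ± 0.52 (SE, adjusted p = 0.663), Cdkn1a −1.69 ± 0.60 (SE, adjusted p = 0.665) and Trp53 0.01 ± 0.26 (SE, adjusted p = 0.998). For both forms together against con, limma called 0 members, against 1.11% of tested genes, with 3 higher and 0 lower at an unadjusted p under 0.05, against 9.87% and 5.57%. Trp53, Phlda3 and Cd80 had all 4 libraries above both con libraries, against 12.0% of tested genes, and 0 members had all 4 below, against 12.2%.

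These counts depended on ICN replicate 1. Without that library limma called 16 of 29 members in ICN against con, each of them higher, where 8.56% of tested genes were called higher: Ak1, Btg2, Ccng1, Cd80, Cdkn1a, Ei24, Ercc5, Fas, Mdm2, Phlda3, Polk, Ppm1d, Psrc1, Sesn2, Trp53inp1 and Zmat3. In CTdel against ICN it then called 15 lower, against 4.93% of tested genes. The median change in ICN against con was then 1.41. In this setting ICN is the single library of replicate 2, assumed to vary like the other groups. Without ICN replicate 2 it called 1 member in ICN against con, Cd80, against 1.17% of tested genes, and the median change was 0.30. Without CTdel replicate 1 or without CTdel replicate 2 it called Btg2, Cd80 and Fas, against 1.35% and 1.34% of tested genes. The median without con replicate 1 was 1.15 and without con replicate 2 was 0.50, above 0 with either control library.

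A second list held 23 further p53 targets. Of these 19 were tested, and in ICN 15 had a higher mean, against 50.1% of all tested genes. The median of the 19 was 0.69 (0.12 and 1.12 in the replicates). Their changes ran from −0.36 to 2.42, and the gene with the largest was not among those given by value below. Changes exceeded 1 in 2 genes in replicate 1 and in 11 in replicate 2, against 4.25% and 11.4% of tested genes. Limma called 0 in ICN, against 0.0362% of tested genes, with 5 higher at an unadjusted p under 0.05, against 10.0%. Pidd1, a death-domain adaptor, stood at 10.5 and 16.4 (con), 16.3 and 40.2 (ICN) and 12.2 and 15.4 (CTdel). The cytokine Lif stood at 5.48 and 2.31 (con) and 8.91 and 21.5 (ICN).

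The death effectors Bbc3, which encodes PUMA, and Bax were chosen after their values were seen. Bbc3 stood at 69.4 and 25.7 (con), 64.9 and 266 (ICN) and 37.6 and 51.0 (CTdel), and Bax at 183 and 198 (con), 231 and 457 (ICN) and 234 and 173 (CTdel). In CTdel the median of the 19 genes was 0.06, and limma called 1, against 1.41% of tested genes. That gene was Cd82, a tetraspanin of the cell surface. Cd82 rose from 38.3 and 14.9 (con) to 258 and 238 in CTdel (log2 change 3.32, adjusted p = 0.0200 in limma's test). The rise was not confined to CTdel. The largest difference of CTdel against ICN among the 19 genes was 1.77, so the mean of Cd82 was above con in ICN too.

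The genes that feed into p53 showed no common direction. Of 19 activators and partners 16 were tested. In ICN 7 were higher, against 50.1% of tested genes, with a median of −0.04. Limma called 0 in ICN and 0 in CTdel, against 0.0362% and 1.41% of tested genes. At an unadjusted p under 0.05 there were 2 higher and 1 lower in ICN, against 10.0% and 5.03% of tested genes. In CTdel there were 0, against 7.79% higher and 3.99% lower. Atm, the kinase that signals DNA breaks, stood at 13.6 and 8.68 (con), 22.3 and 19.0 (ICN) and 16.1 and 17.8 (CTdel). Cdkn2a, whose Arf product inhibits Mdm2, was at or below 0.96. Of the 7 tested p53 brakes 3 were higher in ICN, against 50.1% of tested genes, with a median of −0.02. Here too limma called 0 in ICN and in CTdel, against 0.0362% and 1.41% of tested genes. At an unadjusted p under 0.05 there were 2 higher in ICN, against 10.0% of tested genes, and 0 in CTdel. Sirt1, a deacetylase of p53, stood at 11.9 and 10.5 (con), 20.4 and 21.3 (ICN) and 10.4 and 7.53 in CTdel (adjusted p = 0.213 in ICN), and the p53 inhibitor Ppp1r13l at 7.76 and 8.03, 9.89 and 36.3, and 8.80 and 11.6.

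Cell cycle genes that the DREAM repressor complex shuts off downstream of p21 lay lower in ICN, again in replicate 2. Of 14 tested genes 12 had a lower mean, against 5511 of all 11050 tested genes. The median of the 14 was −0.64, with −0.13 in replicate 1 and −1.05 in replicate 2. Their FPKM summed to 575 and 957 (con), 591 and 438 (ICN) and 631 and 984 (CTdel). The change in replicate 2 thus started from a higher control. In replicate 1, 5 of the 14 were higher in ICN, against 5706 of all 11050 tested genes. In 9 both ICN libraries lay below both con libraries, against 19.6% of tested genes. Limma called 0 in ICN, against 0.0362% of tested genes, with 4 lower at an unadjusted p under 0.05, against 5.03%. Ccnb1, the mitotic cyclin, stood at 67.3 and 93.8 (con), 55.2 and 35.9 (ICN) and 66.7 and 78.3 (CTdel), and the mitotic kinase Plk1 at 63.5 and 95.5, 37.6 and 55.4, and 46.8 and 101. In CTdel the median was 0.02 and limma called 0, against 1.41% of tested genes. At an unadjusted p under 0.05, 1 was higher in CTdel, against 7.79% of tested genes.

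**Figure D4:**
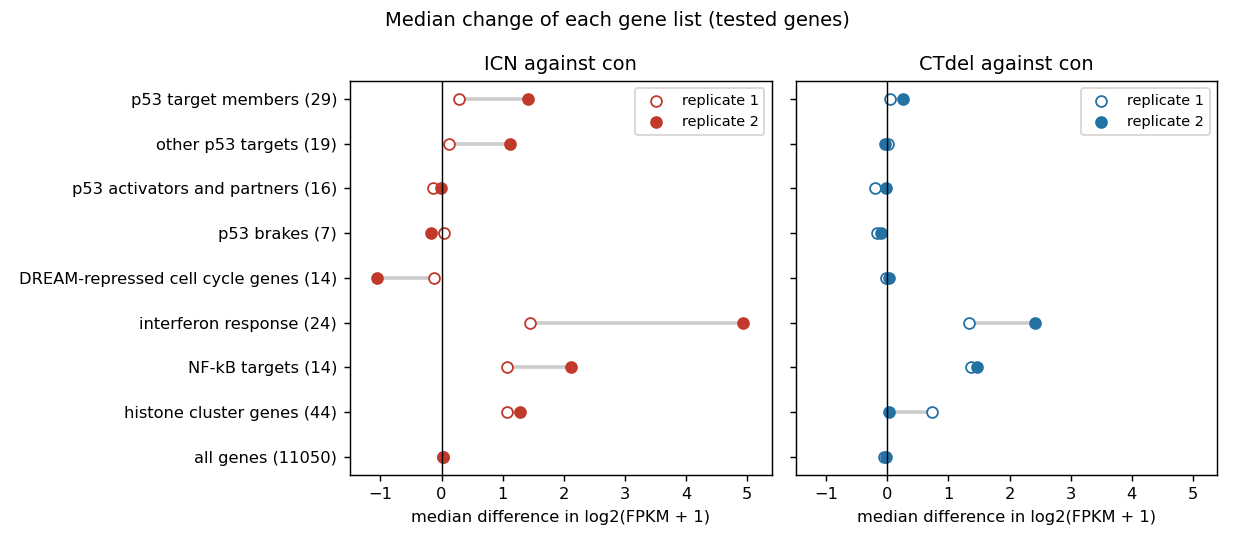
Median difference in log2(FPKM + 1) from con for the tested genes of each list, with open points for replicate 1, filled points for replicate 2 and the number of genes in brackets. The p53 targets and the other p53 targets sit above 1 only in ICN replicate 2, the DREAM genes at −1.05 there, and the interferon and NF-kB lists lie above 1 in all 4 libraries.

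Other gene lists and library measures differed from con as well, not all in the pattern of the p53 targets. The 24 tested interferon-response genes had a median of 2.97 in ICN (1.44 and 4.93 in the replicates) and 1.90 in CTdel (1.34 and 2.42). Of the 24, limma called 0 in ICN and 0 in CTdel, against 0.0362% and 1.41% of tested genes. At an unadjusted p under 0.05, 24 were higher in ICN and 14 in CTdel, against 10.0% and 7.79% of tested genes. The 14 tested NF-kB targets had 1.66 in ICN (1.06 and 2.11) and 1.40 in CTdel (1.36 and 1.47). In ICN limma called 0 of them, against 0.0362% of tested genes. There 12 were higher at an unadjusted p under 0.05, against 10.0% of tested genes. In CTdel limma called 3 of them, Nfkbia, Nfkbie and Tnip1, against 1.41%. Fas and Cd80 are known NF-kB targets as well. Histone cluster genes, whose mRNAs lack poly(A) tails, had a median of 1.17 in ICN (1.08 and 1.29) and 0.36 in CTdel (0.73 and 0.03). In 31 of the 44 tested, both ICN libraries lay above both con libraries, against 22.7% of tested genes. Histone FPKM summed to 203 and 903 (con), 394 and 1311 (ICN) and 412 and 1034 (CTdel), so replicate 2 was far higher in every group. The Notch1 level and the number of genes above 0 were also highest in ICN replicate 2. Their part in the p53 target changes was not tested.

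Myeloid markers, 9 of 13 tested, summed to 145 to 240 FPKM in con, 267 to 441 in ICN and 720.2 to 742 in CTdel, with Elane at 0 in con and CTdel and Mpo at or below 0.66. Their sum was lower in ICN replicate 2 (267) than in ICN replicate 1 (441). In CTdel limma called Spi1, Cd68, Itgax and Tyrobp higher, against 1.41% of tested genes called. It also called 1 of the 3 tested pro-B markers higher in CTdel, against the same 1.41%. All 3 had both CTdel libraries above both con libraries, against 18.3% of tested genes. The same held for all 3 in ICN, against 22.7%. Fibroblast and endothelial markers summed to 52.2 to 63.2 in con and 40.3 to 49.2 in the other groups, with Col3a1 at 0 in the table that lists it, and erythroid and megakaryocyte markers to 295 to 762, 259 to 457 and 214 to 357 in con, ICN and CTdel. In bulk RNA, more cells with a transcript and more of it per cell cannot be told apart.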

How the data were processed

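Messenger RNA of 6 BaF3 libraries was measured, 2 each of con, ICN and CTdel, after library preparation with an MGIEasy mRNA kit (per the labels). The authors deposited FPKM per gene in 2 tables, and each holds 1 library of every group. The submitters' processing notes list RSEM, HISAT2 and Bowtie2 with the builds mm10 and hg19, without version or role. The tables hold 17877 and 17868 genes, with 16799 shared, and were joined by NCBI Gene ID. 26 symbols that had turned into dates were restored from their IDs. RefSeq's gene table (GRCm38.p6) held 18898 of the IDs and gave the coordinates.

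Read totals are unknown. Relative depth against con replicate 1 was estimated from the lowest FPKM above 0 of small RNA genes, over 33 lengths, and no counting interval was computed.

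Log2(FPKM + 1) was tested with limma (3.58.1, R 4.3.3) using its intensity trend, 2-sided. Genes entered if both tables listed them and at least 2 libraries reached FPKM 1, which gave 11050, over which Benjamini-Hochberg adjustment ran. Group and table were the model terms over the 6 libraries. Residual degrees of freedom were 2, and the prior added a median of 3.82. Calls needed an adjusted p under 0.05. The fit was also run on simulated data with independent noise and the same added change in both ICN libraries. The real ICN replicates lay far apart, so that run does not test the calls made here. The scale understates changes of low genes.

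The members and the other gene lists were chosen with earlier results of these data known, so no list was tested as a set. Values in every library are given for Trp53, Cdkn1a, Mdm2, the 8 tested members with the smallest p in each pairwise comparison and any called member, and for up to 4 genes of each other p53 list by the same order, with further members described by role. Promoter matches were found in Python 3.11.15, and exon overlaps in GENCODE M21. Alternatives covered the table term, pseudocount, filter, scaling and each library left out. Results that need items withheld for evaluation are not reported here.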

Additional observations from a re-analysis of the deposited data

How the results depend on the processing

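Each group had 2 libraries, and FPKM keep no read depth, so the precision of low genes is unknown. Called members numbered 0 in all 4 comparisons under the 5 settings that keep all 6 libraries. Same-numbered libraries deviated together for con and CTdel (correlation 0.326 over genes) and for ICN and CTdel (0.236) but not for con and ICN (−0.099), so the numbers may mark no more than the table. With no replicate block, limma called 3 genes in ICN against con, 130 in CTdel against con, 2 in CTdel against ICN and 132 for both forms, against 4, 156, 2 and 123 with the block, and 0 members throughout.

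Over all genes, fitting without a filter on low genes left 0 calls in each of the 4 comparisons, with 10, 1, 4 and 3 members at an unadjusted p under 0.05 (ICN, CTdel, CTdel against ICN, both forms), and a pseudocount of 0.1 left 0 in CTdel against ICN. Leaving out each library in turn gave 11 to 1470 genes and 0 to 16 members in ICN against con, 109 to 731 and 0 to 2 in CTdel against con, 2 to 891 and 0 to 15 in CTdel against ICN, and 48 to 1240 and 0 to 14 for both forms. The median change of members in CTdel against con ran from −0.13 without con replicate 2 to 0.50 without con replicate 1, and was also below 0 without CTdel replicate 1 (−0.10). Single values that changed sign with a library left out were those of Mdm2 (−0.44 to 0.65), Cdkn1a (−0.86 to 0.54) and Sesn2 (−1.74 to 0.55) in CTdel against con and Trp53 in CTdel against ICN (−0.19 to 0.20, and −0.019 with FPKM rescaled to a common sum). The cause was not tested. Of 352 values of single members under the alternatives, 315 kept their direction and side of the threshold and 29 passed it newly, each with a library left out.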
